A study of Homo sapiens with 24 samples.

Results

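The enzymes that break down the branched-chain amino acids leucine, isoleucine and valine were followed through 10 genes, BCAT1, BCAT2, BCKDHA, BCKDHB, DBT, IVD, MCCC1, HIBADH, HIBCH and ALDH6A1, among 18265 genes measured. The genes were chosen by name, for their place in the pathway, with earlier results of these data known. They are read by 26 of 45336 probe sets. RNA came from 4 established human cancer cell lines, HGC-27 (stomach), HCT-8 (colon or rectum), Huh-7 and HepG2 (both liver). Each line gave 3 arrays of control cells, which the sample labels place at 0 h of melatonin, and 3 arrays of cells given melatonin for 24 h at 1 concentration in the millimolar range. The labels call the cells of all groups wild type. The methods instead describe controls kept in ethanol, the solvent, over the same time, so time in culture and solvent cannot be told apart from melatonin by the labels. Stomach and large bowel are represented by a single line apiece, so line and tissue cannot be told apart. The methods call the arrays biological replicates, and the labels do not say how the cultures were kept apart.

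The first step of the pathway moves the amino group onto 2-oxoglutarate, in the cytosol by BCAT1 and in mitochondria by BCAT2. The second step is the committed one, the oxidative decarboxylation of the keto acids by the mitochondrial branched-chain keto acid dehydrogenase (BCKD) complex, whose E1 part is made from BCKDHA and BCKDHB and whose E2 core is made from DBT. After it the branches part. IVD and MCCC1 act on leucine carbon, whereas HIBCH, HIBADH and ALDH6A1 act on valine carbon on its way to propionyl-CoA. In the body the liver is known for low BCAT activity and high BCKD activity, and BCAT1 is often raised in tumors.

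The control arrays were checked against defining genes of the labelled tissues. Huh-7 and HepG2 cells carried the liver genes ALB (log2 intensity 11.21 and 11.75), AFP (10.53 and 10.76) and APOA1 (10.13 and 10.81). HCT-8 cells carried the gut genes LGALS4 (8.10), CDX1 (6.04), CDH17 (6.26) and EPCAM (9.58). Several of these did not set HCT-8 cells apart, since Huh-7 cells carried CDH17 (7.28), CDX2 (7.62, against 6.84 in HCT-8) and EPCAM (9.99) and HepG2 cells EPCAM (8.98), whereas LGALS4 was at 1.46 and 1.07 there. The stomach gene TFF1 was at 6.18 in HCT-8 and 6.20 in Huh-7 cells. HGC-27 cells were low for most gut and stomach genes, with EPCAM at 1.09, KRT18 at 1.39, TFF1 at 1.33 and CLDN18 at 1.35. The gut gene CDX2 was an exception at 4.04, and HGC-27 cells carried the fibroblast genes COL1A1 (6.32) and DCN (6.0). The blood cell gene PTPRC was at 1.03 or lower in all 4 lines, but LYZ, another gene of that list, was at 8.02 (Huh-7) and 10.44 (HepG2) in the liver lines, and CD68 at 5.28 and 4.38. One library stood apart. In HepG2 melatonin replicate 1 the signal of ACTB at its 3′ end exceeded that at its 5′ end by 8.34 on the log2 scale, where the other 23 arrays gave 0.08 to 0.72. The same difference for GAPDH was 7.72, where the others gave −0.18 to 0.07. Its correlation over genes with the other HepG2 arrays was 0.938 to 0.953, against 0.975 to 0.999 within lines elsewhere. HepG2 results of the 10 genes are therefore given with and without this array. Array medians ran from 2.13 to 3.33 between lines but lay close together within each, so levels of different lines are set side by side and only differences within a line were tested.

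Start-site sequence is shown for 3 members, ALDH6A1 as the gene with the largest rise, and BCAT1 and MCCC1 as the members with a match to an ATF4 core or E-box motif in the 250 bases before the start. The sequences are from RefSeq (GRCh38.p14). Windows were at hand for 8 of the 10 genes and not for BCAT2 or HIBADH. In the ALDH6A1 sequence (chr14:74084454-74084703, minus strand) the capitals mark the letters CCAAT or, for the other strand, ATTGG.
ALDH6A1: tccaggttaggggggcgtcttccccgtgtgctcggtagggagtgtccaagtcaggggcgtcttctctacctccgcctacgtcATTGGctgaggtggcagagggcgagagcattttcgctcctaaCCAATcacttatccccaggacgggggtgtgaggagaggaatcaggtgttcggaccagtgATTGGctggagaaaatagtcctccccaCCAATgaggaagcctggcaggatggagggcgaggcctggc
It held 4 such boxes, and 0.87% of all 35116 upstream windows held as many, while 32.01% held at least 1. Such boxes were not particular to ALDH6A1. BCKDHB and IVD, which both fell in HGC-27 cells, held 3 each, and 2.93% of windows held as many. MCCC1 held 2, BCKDHA, DBT and BCAT1 held 1 in a window, and HIBCH held none. The search for CCAAT was added after the sequences had been seen. In the next pair the capitals mark TGATGNAA, the core of sites bound by the amino acid stress factor ATF4, in BCAT1 (chr12:24949131-24949160, minus strand), and the E-box CACGTG in MCCC1 (chr3:183099645-183099674, minus strand). Both motifs were searched on both strands.
BCAT1: tgtcttcctgcTGATGCAAtccgctaggtc
MCCC1: acccccacgagCACGTGgccagactgccca
TGATGNAA was present upstream in 3.14% and CACGTG in 6.34% of all windows. The BCAT1 match lies before 1 of 5 start sites of this gene listed in RefSeq, and the MCCC1 match before 2 of 3. ALDH6A1 had neither motif. A match is a run of letters, not a measured binding site.

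Members of the pathway changed in both directions with melatonin, and different ones were called in different lines. RNA was read from whole cultures, so fewer cells with a transcript and less of it per cell cannot be told apart. Each gene's melatonin arrays were compared with the controls of the same line by limma, and a gene is said to have risen or fallen where its p, adjusted over all 18265 genes, was below 5%. In HGC-27 cells ALDH6A1 and HIBADH rose, and BCAT2, BCKDHB, IVD and HIBCH fell. In Huh-7 cells ALDH6A1, HIBADH and HIBCH rose, and BCAT1, BCAT2 and IVD fell. In HCT-8 cells BCKDHB alone fell. In HepG2 cells none of the 10 passed by limma, 5 had an unadjusted p below 0.05, and the methods' t-test called 1, BCAT1. Without melatonin replicate 1, ALDH6A1 rose and BCAT1, IVD and MCCC1 fell in HepG2 cells.

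These counts were read against all genes. In HGC-27 cells 2 of 10 members rose, where 20.9% of all genes did, and 4 fell, where 18.7% did. In HCT-8 cells 0 rose against 16.6% of all genes, and 1 fell against 15.0%. In Huh-7 cells 3 rose against 23.8%, and 3 fell against 27.4%. In HepG2 cells the shares of all genes were 3.87% higher and 3.67% lower with every array. They were 16.4% and 14.9% without melatonin replicate 1, when 1 member rose and 3 fell. With so few members a share moves in large steps. The members were chosen with earlier results of these data known, so the shares are a description. The counts in Huh-7 cells lay near the background, the falls in HGC-27 cells and in HepG2 cells without the array lay above it, and HCT-8 cells lay below it, with no test of these gaps. The median log2 difference of the members was −0.12 in HGC-27, 0.11 in Huh-7, 0.02 in HCT-8 and −0.15 in HepG2 cells (−0.13 without the array). The medians of all genes were −0.01, −0.06, −0.03 and 0.04 (0.01 without it) in the same order.

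**Figure D1:**
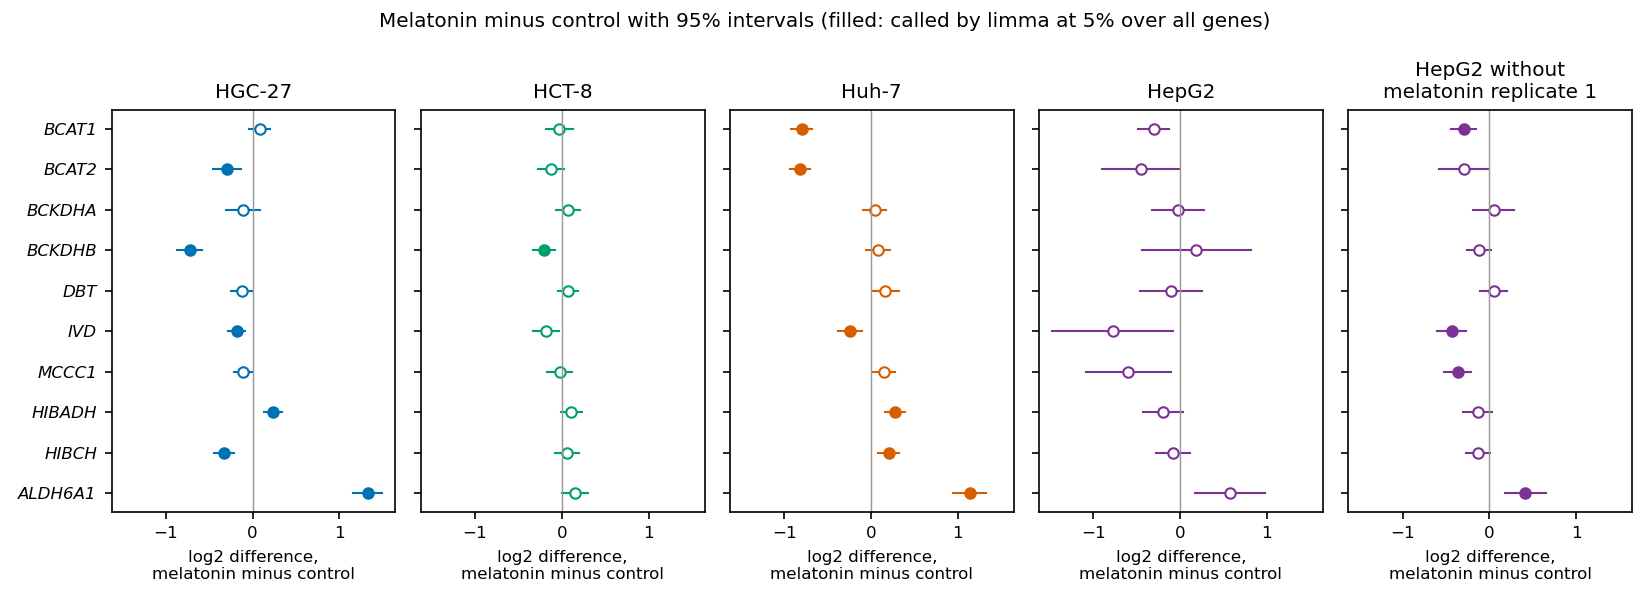
Log2 difference (melatonin minus control, x axis) of the 10 genes (rows) in each line, with 95% intervals from limma and 3 arrays per group; filled points passed an adjusted p of 5%, and the last panel leaves out 1 HepG2 array. ALDH6A1 lies at 1.33 in HGC-27 and 1.14 in Huh-7 cells, BCAT1 at −0.80 and BCAT2 at −0.82 in Huh-7 cells, and HepG2 intervals narrow without the array.

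Over the lines, 6 members were called in 2 lines, 1 in a single line and 3, BCKDHA, DBT and MCCC1, in none. Of all genes 21.3% were called in 2 lines, 29.4% in 1 and 31.3% in none. Without HepG2 melatonin replicate 1 the members called in 3, 2, 1 and 0 lines were 2, 5, 1 and 2, against 13.8%, 19.3%, 26.4% and 28.7% of all genes. HIBCH was called in opposite directions, lower in HGC-27 and higher in Huh-7 cells. The interaction of line and melatonin, in 1 fit of the 24 arrays, asked whether the lines responded by different amounts. It did for 7 of the 10 members, where 34.3% of all genes passed. Without HepG2 melatonin replicate 1 it did for 8, DBT being added, where 53.6% of all genes passed. The adjusted p of this test was 3.96e-07 for BCAT1, 3.23e-05 for ALDH6A1, 1.84e-04 for HIBCH and 4.74e-04 for HIBADH. It was 0.00941 for BCKDHB, 0.00953 for MCCC1 and 0.0112 for BCAT2. BCKDHA (0.619), DBT (0.192) and IVD (0.125) did not pass.

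**Figure D2:**
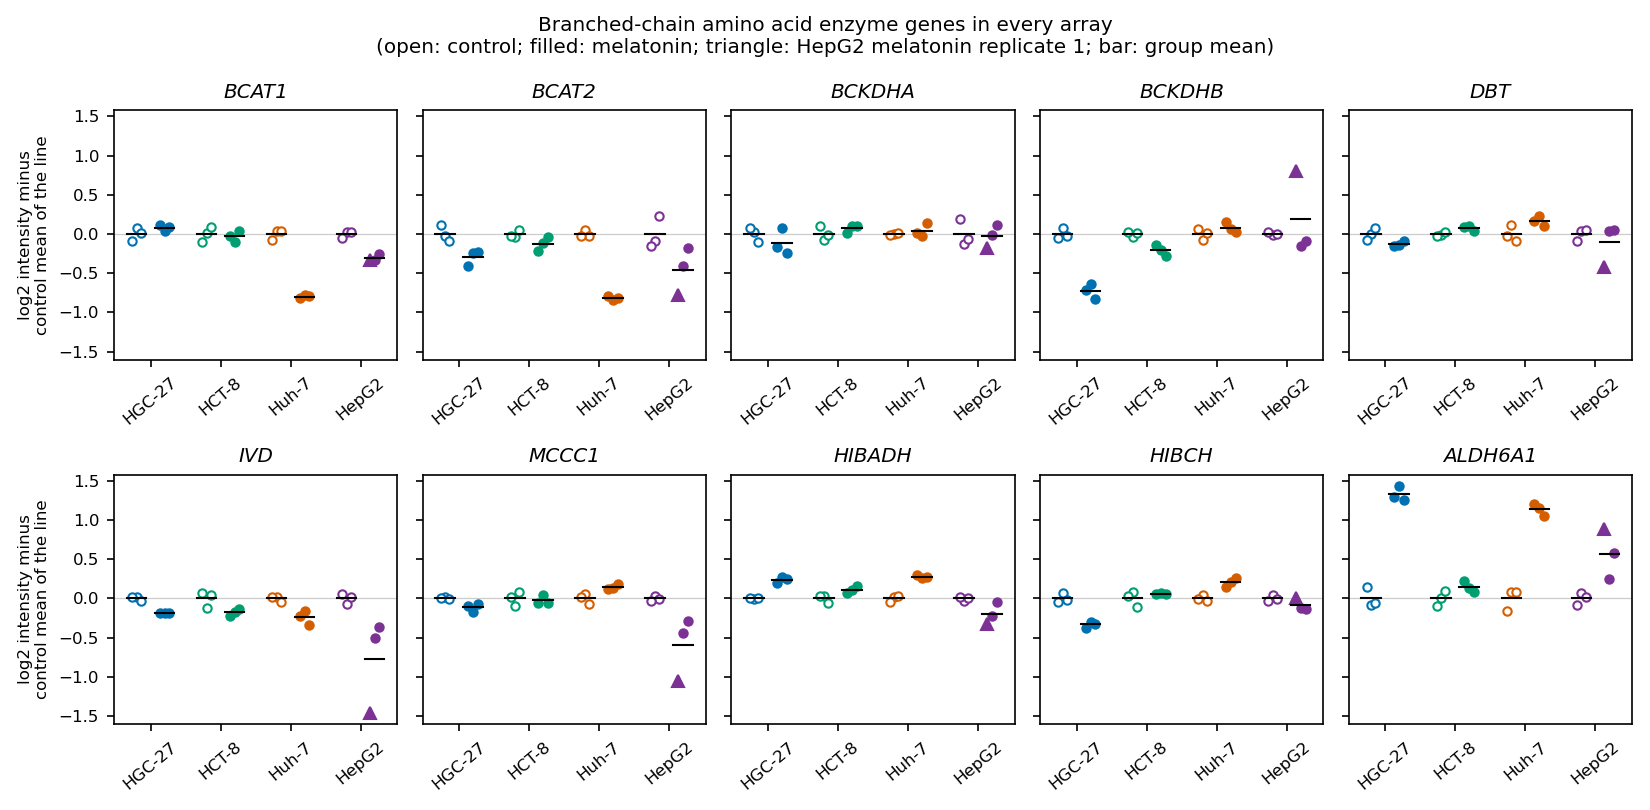
Log2 intensity of each array minus the control mean of its line (y axis) for the 10 genes (panels) in the 4 lines (x axis); open points are controls, filled points melatonin, bars group means, and the triangle is HepG2 melatonin replicate 1. The melatonin arrays of ALDH6A1 lie above all controls in HGC-27, Huh-7 and HepG2 cells, and the triangle lies apart from its replicates in BCKDHB, IVD and MCCC1.

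The transaminases behaved differently by line. BCAT1 fell in Huh-7 cells, from 5.46, 5.46 and 5.34 in the controls to 4.60, 4.64 and 4.63 (log2 intensity). The groups stood well apart, and the difference was −0.80 (standard error 0.05, adjusted p = 5.6e-06), which is 0.575 of the control level. In HGC-27 cells the controls were at 6.77, 6.70 and 6.61 and the melatonin arrays at 6.81, 6.73 and 6.78, so the groups overlapped and the difference was 0.08 (adjusted p = 0.291). In HepG2 cells the controls at 6.02, 6.02 and 5.94 all lay above the melatonin arrays at 5.67, 5.66 and 5.74. This difference of −0.31 missed the threshold (adjusted p = 0.0619), and it was −0.30 without melatonin replicate 1 (adjusted p = 0.00864). BCAT1 was hardly measured in HCT-8 cells, with arrays at 0.70 to 0.90, where 11.6% of genes had a lower control mean. Its difference there was −0.03 (adjusted p = 0.783).

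BCAT1 is read by 5 probe sets, and they did not move together in HGC-27 cells. Probe set 11720566_at fell from 8.74 to 8.35 (adjusted p = 0.00302 over all probe sets). Probe sets 11749780_a_at (0.34 higher, adjusted p = 0.0176) and 11749895_a_at (0.40 higher, adjusted p = 7.55e-04) rose. The other pair, 11749781_s_at (−0.18) and 11749782_x_at (0.23), passed in neither direction, and the endings _s_at and _x_at mark sets whose probes can also match other transcripts. The gene mean of 0.08 in HGC-27 cells thus averages opposite changes. In Huh-7 cells all 5 probe sets fell, 11720566_at by 1.67 and the others by 0.49 to 0.72. In HepG2 cells without melatonin replicate 1, 11720566_at fell by 0.77 (adjusted p = 0.00173) and 11749781_s_at by 0.43 (adjusted p = 0.0344), and the others gave −0.12 to −0.08. Probe set 11720566_at was thus lower in 3 lines by this count, and the files do not say which transcripts each set reads.

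BCAT2, the mitochondrial transaminase, has 1 probe set here. It fell in Huh-7 cells from 7.64, 7.57 and 7.56 to 6.80, 6.74 and 6.77. All melatonin arrays lay below all controls, with a difference of −0.82 (standard error 0.05, adjusted p = 3.21e-06). The gene also went, in HGC-27 cells, from 6.98, 6.93 and 7.13 to 6.60, 6.77 and 6.78, a fall of 0.29 (adjusted p = 0.00953). This fall did not pass in the joint fit of 24 arrays (adjusted p = 0.0683) or by the methods' t-test (adjusted p = 0.0647). Nor did it pass with the arrays centred on the ERCC spike-in (−0.14, adjusted p = 0.497). That scale rests on the brightest ERCC probe set alone, since 1 of 100 exceeded the middle of all probe sets. The spread of this probe set between arrays enters every difference on the ERCC scale, here and below. In HCT-8 cells the groups overlapped, and the difference was −0.12 (adjusted p = 0.175). In HepG2 cells the controls at 3.04, 3.36 and 2.98 and the melatonin arrays at 2.35, 2.72 and 2.95 did not overlap but were widely spread. The difference was −0.45 (adjusted p = 0.216), and −0.29 without melatonin replicate 1 (adjusted p = 0.117). Huh-7 was thus the line in which both transaminase genes fell.

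Of the 3 genes for the BCKD complex itself, BCKDHB was the one called in any line by the limma fits with every array kept. BCKDHB encodes the beta chain of E1. In HGC-27 cells it was at 4.86, 4.76 and 4.73 in controls and at 4.08, 4.15 and 3.95 with melatonin. The groups were clearly separate, with a difference of −0.72 (standard error 0.06, adjusted p = 4.42e-05), and all 4 of its probe sets fell, by 0.38 to 1.03. In HCT-8 cells it went from 3.64, 3.68 and 3.70 to 3.54, 3.47 and 3.39, a small fall of 0.21 (adjusted p = 0.0248) that turned to a difference of 0.03 on the ERCC scale. This call was lost when any of 4 arrays was left out, with adjusted p from 0.0549 without control replicate 2 and 0.0633 without control replicate 3 to 0.0749 without melatonin replicate 2 and 0.103 without melatonin replicate 3. In Huh-7 cells the arrays overlapped, with a difference of 0.08 (adjusted p = 0.287). One of 4 probe sets, 11724673_a_at, rose there from 4.64 to 5.02 (adjusted p = 0.00156), while the others gave −0.12 to 0.08. The same probe set fell by 1.03 in HGC-27 cells.

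HepG2 cells show what the outlying array does to BCKDHB. Controls were at 3.91, 3.92 and 3.95, and melatonin replicates 2 and 3 at 3.77 and 3.84, just below them. Replicate 1 stood at 4.73. The difference was therefore 0.19 with it (95% interval −0.44 to 0.82) and −0.12 without it (−0.26 to 0.01, adjusted p = 0.168). Without it, probe set 11724673_a_at fell (−0.34, adjusted p = 0.023), and the other 3 gave −0.22 to 0.04 and did not pass.

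BCKDHA, the alpha chain of E1, passed in no line. It is read by 1 probe set, 11733731_s_at, of the kind whose probes can also match other transcripts. Its differences were −0.11 in HGC-27, 0.04 in Huh-7, 0.07 in HCT-8 and −0.02 in HepG2 cells, and control and melatonin arrays overlapped in all 4. The 95% intervals reached from −0.31 to 0.09 in HGC-27, −0.09 to 0.17 in Huh-7, −0.07 to 0.21 in HCT-8 and −0.33 to 0.28 in HepG2 cells. Without melatonin replicate 1 the HepG2 difference of BCKDHA was 0.05 (adjusted p = 0.762). DBT, the E2 core, likewise passed in no line by these fits, at −0.13 in HGC-27, 0.16 in Huh-7, 0.08 in HCT-8 and −0.10 in HepG2 cells. Without melatonin replicate 1 its HepG2 difference was 0.05 (adjusted p = 0.646). In HGC-27 cells it did pass after quantile normalization (−0.21, adjusted p = 0.0113) and centring on the median (−0.21, adjusted p = 0.0107). On the ERCC scale the difference there was 0.022. DBT was read by 6 probe sets. In Huh-7 cells 11731510_at (0.34 higher, adjusted p = 0.0101) and 11752357_a_at (0.29 higher, adjusted p = 0.0397) rose, whereas 11731511_s_at gave −0.33 (adjusted p = 0.0776). The gene mean there again joins probe sets of opposite sign.

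Regulators of the complex were measured beside it. BCKDK, the kinase that switches BCKD off, rose by 0.31 in HGC-27 cells (adjusted p = 0.00401) and fell by 0.17 in Huh-7 cells (adjusted p = 0.0178). PPM1K, the phosphatase that switches it on again, rose by 0.29 in HGC-27 cells (adjusted p = 0.00788) and by 0.31 in HCT-8 cells (adjusted p = 0.00562). Its control means were low there, at 2.12 and 1.30 (percentiles 39.8 and 33.9 of all genes). In HGC-27 cells the genes for kinase and phosphatase thus rose together while BCKDHB fell. DLD, the E3 subunit that BCKD shares with the pyruvate and 2-oxoglutarate dehydrogenases, fell by 0.21 in HGC-27 cells (adjusted p = 0.00854). None of the 3 passed in HepG2 cells, with or without melatonin replicate 1.

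On the leucine branch, IVD, the dehydrogenase that acts on isovaleryl-CoA, gave a lower mean in every line. In HGC-27 cells it went from 6.11, 6.05 and 6.10 to 5.90 in all 3 melatonin arrays, a fall of 0.19 (adjusted p = 0.00731). In Huh-7 cells it went from 5.16, 5.10 and 5.16 to 4.91, 4.98 and 4.80, a fall of 0.24 (adjusted p = 0.0101). The groups did not overlap in either line, but in HGC-27 cells the difference was −0.04 on the ERCC scale. In the joint fit of 24 arrays neither fall passed (adjusted p = 0.529 in HGC-27 and 0.271 in Huh-7 cells). In that fit the lines share an estimate of spread, to which the wide HepG2 melatonin group (SD 0.598) adds. In HCT-8 cells the controls at 4.67, 4.83 and 4.86 lay above the melatonin arrays at 4.56, 4.61 and 4.65, with a difference of −0.18 (adjusted p = 0.0712). In HepG2 cells the controls were at 5.99, 6.08 and 6.12, and melatonin replicates 2 and 3 at 5.56 and 5.70. Replicate 1 was at 4.60, far below them. The difference was −0.78 with replicate 1 (adjusted p = 0.185) and −0.43 without it (adjusted p = 0.00306).

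The 2 probe sets of IVD differed in what they called. Probe set 11720642_a_at fell by 0.28 in HGC-27 (adjusted p = 0.0115), by 0.29 in Huh-7 (adjusted p = 0.00802) and by 0.39 in HCT-8 cells (adjusted p = 0.0053). Probe set 11720643_a_at gave −0.09, −0.19 and 0.04 there and passed in none of these 3 lines. Without HepG2 melatonin replicate 1, both fell in HepG2 cells, by 0.33 (adjusted p = 0.0193) and 0.54 (adjusted p = 0.00705).

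MCCC1, the biotin-carrying subunit of methylcrotonyl-CoA carboxylase, did not pass in any line by the limma fit of that line with every array kept. Its differences were −0.11 in HGC-27 (adjusted p = 0.0807), 0.15 in Huh-7 (adjusted p = 0.0501) and −0.03 in HCT-8 cells (adjusted p = 0.787). In Huh-7 cells the controls at 4.76, 4.63 and 4.71 lay below the melatonin arrays at 4.83, 4.83 and 4.89. In HepG2 cells the controls at 4.37, 4.33 and 4.31 lay above melatonin arrays at 3.28, 3.90 and 4.05. Here replicate 1 was again the lowest array, and the difference was −0.60 with it (adjusted p = 0.153) and −0.36 without it (adjusted p = 0.00498). Other settings with every array kept did call MCCC1. In HGC-27 cells it passed after quantile normalization (−0.18, adjusted p = 0.0133) and centring on the median (−0.19, adjusted p = 0.00767). On the ERCC scale the difference there was 0.037. In Huh-7 cells it passed without genes under the 25th percentile (adjusted p = 0.0335) and with limma's trend and robust options (adjusted p = 0.0432). In HepG2 cells it passed in the joint fit of 24 arrays (adjusted p = 6.09e-04).

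The 3 valine genes carried the largest rise. HIBCH, which frees 3-hydroxyisobutyrate from CoA, fell in HGC-27 cells from 7.33, 7.24 and 7.22 to 6.89, 6.96 and 6.94, by 0.33 (adjusted p = 7.28e-04). In Huh-7 cells it rose from 7.25, 7.18 and 7.19 to 7.35, 7.41 and 7.47, by 0.20 (adjusted p = 0.0119). Neither pair of groups overlapped, so the gene moved in opposite directions in these lines. On the ERCC scale neither change passed, at −0.18 (adjusted p = 0.383) and 0.11 (adjusted p = 0.466), nor did the rise with the arrays centred on their median (0.14, adjusted p = 0.0506). The differences in HCT-8 (0.06) and HepG2 cells (−0.08, and −0.13 without melatonin replicate 1) did not pass. HIBCH has 1 probe set here.

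HIBADH, the dehydrogenase that follows HIBCH, rose in both of those lines. In HGC-27 cells it went from 6.71, 6.72 and 6.72 to 6.91, 6.99 and 6.96, a rise of 0.24 (adjusted p = 0.00254). In Huh-7 cells it went from 7.01, 7.02 and 6.94 to 7.30, 7.25 and 7.26, a rise of 0.28 (adjusted p = 0.00155). Both of its probe sets rose in each of the 2 lines, by 0.17 and 0.30 in HGC-27 and by 0.25 and 0.31 in Huh-7 cells. On the ERCC scale the rise in Huh-7 cells was 0.18 and did not pass (adjusted p = 0.212). In HCT-8 cells all 3 melatonin arrays lay above the controls, yet the difference of 0.11 did not pass (adjusted p = 0.16). In HepG2 cells it was −0.20 (adjusted p = 0.3), and −0.13 without melatonin replicate 1.

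ALDH6A1, the mitochondrial dehydrogenase that turns methylmalonate semialdehyde into propionyl-CoA, showed the widest difference among the members. In HGC-27 cells the controls were at 4.32, 4.35 and 4.55 and the melatonin arrays at 5.70, 5.84 and 5.66. The mean went from 4.41 ± 0.12 to 5.73 ± 0.09 (SD, n = 3), a log2 difference of 1.33 (standard error 0.07, adjusted p = 6e-06) or 2.51-fold. In Huh-7 cells the controls were at 5.23, 5.23 and 4.98 and the melatonin arrays at 6.36, 6.30 and 6.19. The difference was 1.14 (standard error 0.08, adjusted p = 7.72e-06) or 2.20-fold. Both gaps were many times the spread between replicates, and both calls held under every scaling tried.

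In HepG2 cells ALDH6A1 was at 4.54, 4.50 and 4.40 in controls and at 5.36, 4.73 and 5.06 with melatonin. All melatonin arrays were above all controls, but their spread was wide, and the difference of 0.57 did not pass (adjusted p = 0.106). Without replicate 1, the highest of the 3, the difference was 0.41 and passed (adjusted p = 0.017). In HCT-8 cells the controls at 4.63, 4.71 and 4.53 touched the melatonin arrays at 4.85, 4.76 and 4.71. The difference was 0.15 (95% interval −0.001 to 0.30, adjusted p = 0.121). The order of the differences was thus HGC-27, Huh-7, HepG2 and HCT-8, with the intervals of HGC-27 (1.16 to 1.5) and Huh-7 cells (0.95 to 1.32) overlapping. ALDH6A1 has a single probe set, so no second reading of the gene was at hand.

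The single probe sets were counted as well, and some passed where the mean of their gene did not, as shown above for BCAT1, BCKDHB, DBT and IVD. Of the 26, 5 rose and 8 fell in HGC-27 cells, 13 in all, where 34.8% of all probe sets were called. In HCT-8 cells 0 rose and 2 fell, where 25.4% were called. In Huh-7 cells 7 rose and 7 fell, where 45.5% were called. In HepG2 cells 0 were called, where 4.41% of all probe sets were, and without melatonin replicate 1 there were 8, 1 higher and 7 lower, where 27.0% were.

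**Figure D3:**
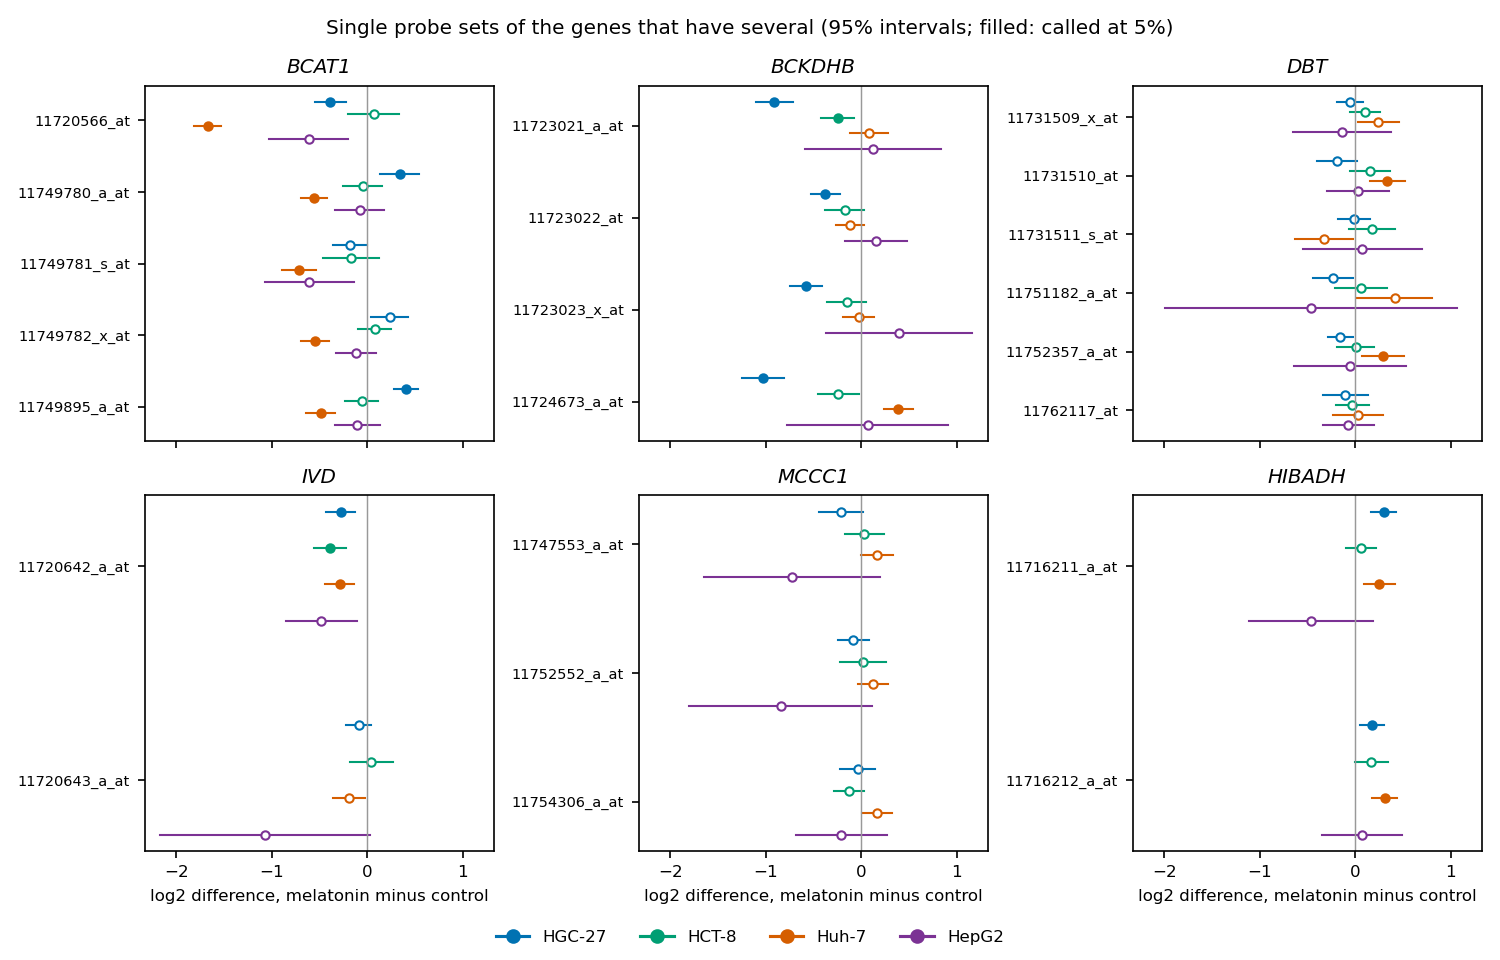
Log2 difference (melatonin minus control, x axis, 95% intervals from limma) of each probe set (rows) of the 6 members with several, by line (colors); filled points passed at 5% over all probe sets. In HGC-27 cells BCAT1 probe sets lie on both sides of 0 (−0.39 to 0.40), whereas all 4 of BCKDHB lie below it, and HepG2 intervals are the widest.

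HepG2 melatonin replicate 1 differed from its replicates on the members too. Over the 26 probe sets it lay between 2.23 below and 1.22 above the mean of replicates 2 and 3, and for 14 it was more than 0.5 away. Replicates 2 and 3 differed by −0.38 to 0.39, and for 0 probe sets by more than 0.5. Probe sets of 1 gene went opposite ways on this array. For MCCC1, 11747553_a_at and 11752552_a_at were 1.31 and 1.41 below the other replicates, and 11754306_a_at was 0.65 above them. For HIBADH, 11716211_a_at was 0.90 below and 11716212_a_at 0.53 above. The part of RNA quality in these values was not tested, but the direction of HepG2 BCAT1, IVD, MCCC1 and ALDH6A1 was the same with and without the array.

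The wider pathway was followed through 40 further measured genes, namely the BCKD E3 subunit, kinase and phosphatase and the other steps of the leucine, valine and isoleucine branches, of propionyl-CoA and ketone body handling and of the aldehyde dehydrogenases. Of these, 10 rose and 12 fell in HGC-27 cells, 9 rose and 10 fell in HCT-8 cells, and 9 rose and 14 fell in Huh-7 cells. The shares of all genes were 20.9% higher and 18.7% lower, 16.6% and 15.0%, and 23.8% and 27.4% in the same order. In HepG2 cells 0 rose and 6 fell, and without melatonin replicate 1, 2 rose and 15 fell. The shares of all genes in HepG2 cells were 3.87% higher and 3.67% lower, and 16.4% and 14.9% without the array. These gaps were not tested. The median differences of the list were −0.01 in HGC-27, −0.07 in Huh-7, −0.06 in HCT-8 and −0.21 in HepG2 cells (−0.13 without the array).

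Among the partners of the members, MCCC2, the other subunit of methylcrotonyl-CoA carboxylase, fell in all 4 lines. Its differences were −0.34 in HGC-27, −0.23 in Huh-7, −0.31 in HCT-8 and −0.52 in HepG2 cells (−0.55 without melatonin replicate 1). The gene for its partner MCCC1 passed in none by the same fits with every array kept, but did by other settings. AUH, the next leucine enzyme, fell by 0.55 in Huh-7 cells (adjusted p = 5.67e-05) but not elsewhere, where its differences were −0.03 to 0.0036. On the isoleucine and valine side ACADSB, an acyl-CoA dehydrogenase of the isoleucine branch, rose in HGC-27 (0.48), Huh-7 (0.29) and HCT-8 cells (0.40). HADHB, a subunit of the trifunctional protein, rose in the same 3 lines by 0.20 to 0.37. HSD17B10, which acts on the isoleucine branch, fell in Huh-7 (−0.41), HCT-8 (−0.20) and HepG2 cells (−0.40). HADH fell in HGC-27, Huh-7 and HCT-8 cells by 0.30 to 0.54. EHHADH, a peroxisomal enzyme, rose in those 3 lines by 0.22 to 0.47 and fell by 0.67 in HepG2 cells (adjusted p = 0.0101).

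The steps from propionyl-CoA to succinyl-CoA, which take up the product of ALDH6A1, did not rise with it as a group. MMAB, which prepares the cobalamin cofactor, fell by 0.49 in HGC-27, 0.79 in Huh-7 and 0.37 in HCT-8 cells. PCCB, a subunit of propionyl-CoA carboxylase, fell by 0.16 in HGC-27 and 0.35 in Huh-7 cells, and its partner PCCA rose by 0.25 in HGC-27 and 0.17 in HCT-8 cells. MMUT, the methylmalonyl-CoA mutase, fell by 0.26 in HGC-27 (adjusted p = 0.00657) and rose by 0.26 in Huh-7 cells (adjusted p = 0.00432). Of these 6 genes, 1 rose and 3 fell in HGC-27 cells, and 2 rose and 2 fell in Huh-7 cells. The shares of all genes were 20.9% higher and 18.7% lower in HGC-27, and 23.8% and 27.4% in Huh-7 cells.

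The ketone body and HMG-CoA genes fell in more cases than they rose. HMGCS1, the cytosolic HMG-CoA synthase of the cholesterol route, fell by 1.44 in HGC-27, 1.41 in Huh-7, 0.52 in HCT-8 and 1.10 in HepG2 cells. ACAT2, a cytosolic thiolase of the same route, fell in all 4 lines by 0.26 to 0.89. OXCT1, which lets cells burn ketone bodies, fell by 0.93, 0.57 and 0.45 in HGC-27, Huh-7 and HCT-8 cells. AACS, which activates acetoacetate in the cytosol, went the other way and rose by 0.81 in Huh-7 and 0.24 in HCT-8 cells. BDH1, the ketone body dehydrogenase, fell by 0.80 in HepG2 cells (adjusted p = 0.0252). Of 6 measured, 3 fell in HGC-27, 4 in Huh-7, 4 in HCT-8 and 3 in HepG2 cells. The shares of all genes that fell were 18.7%, 27.4%, 15.0% and 3.67% in the same order, and the gaps were not tested. Several of these genes serve sterol synthesis rather than leucine breakdown.

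Other aldehyde and amino group enzymes near ALDH6A1 did not share its pattern throughout. ABAT, the GABA transaminase, did rise in HGC-27 (1.07), Huh-7 (1.14) and HCT-8 cells (0.22) and was 0.05 in HepG2 cells. ALDH1B1, a mitochondrial aldehyde dehydrogenase, fell by 0.74, 0.69 and 0.73 in the same lines. ALDH3A2, which oxidizes long-chain aldehydes, rose by 0.42 in HGC-27 and fell by 0.65 in Huh-7 cells. AGXT2 fell by 1.20 in Huh-7 cells (adjusted p = 2.44e-06).

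**Figure D4:**
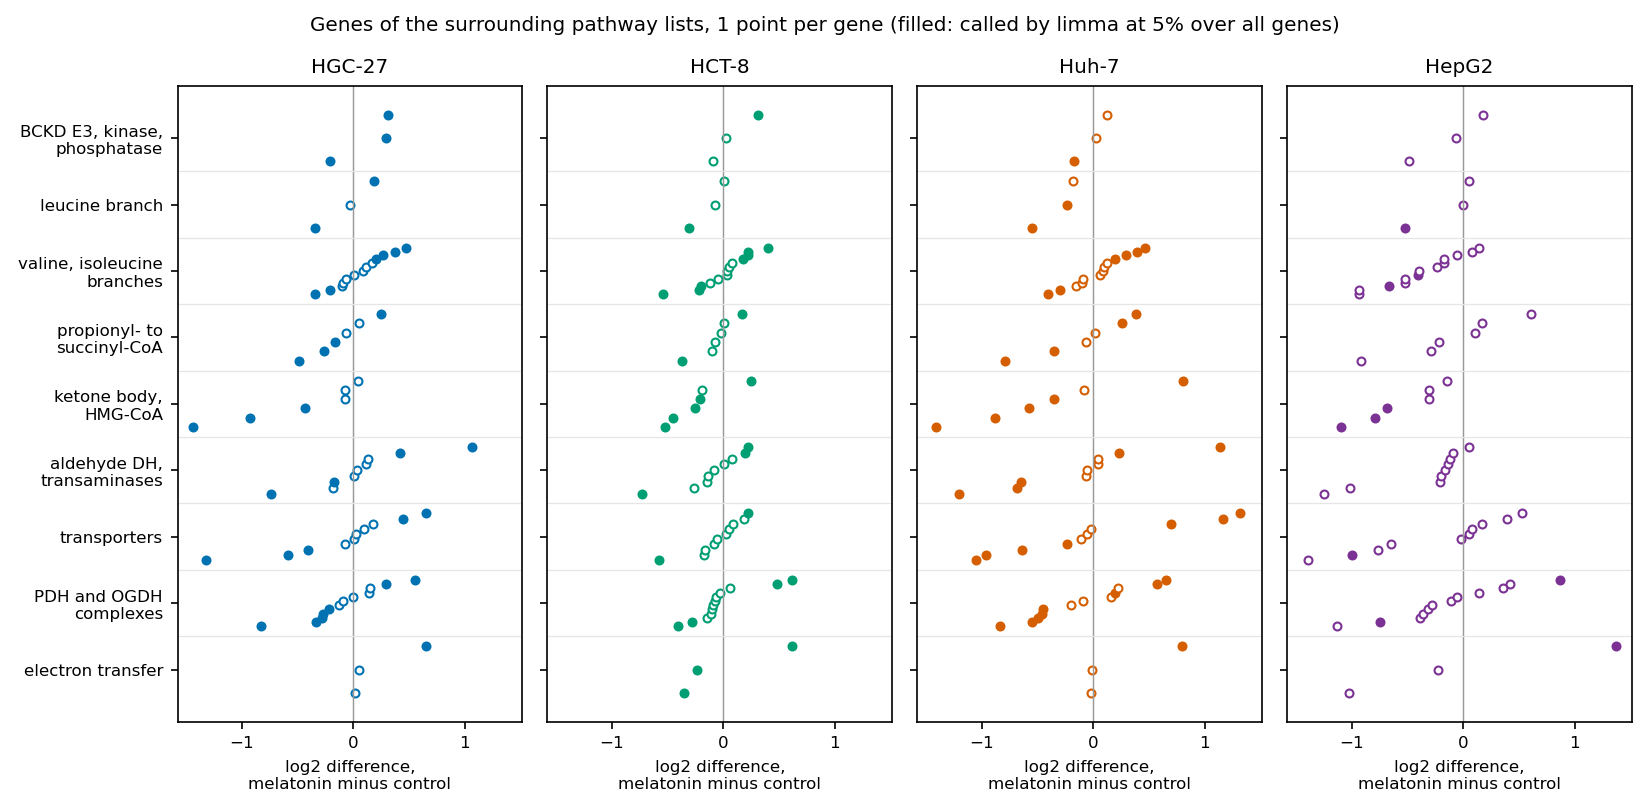
Log2 difference (melatonin minus control, x axis) of each gene (point) of the surrounding lists (rows) in the 4 lines, all arrays kept; filled points passed an adjusted p of 5% over all genes. Ketone body and HMG-CoA genes lie mostly below 0, down to −1.44 in HGC-27 and −1.41 in Huh-7 cells, and 1 electron transfer gene, ETFDH, lies at 0.62 to 1.37 in every line.

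Transport into the cell and the sister complexes were looked at as well. SLC3A2, the heavy chain of the amino acid exchanger, rose by 0.65 in HGC-27, 1.31 in Huh-7 and 0.22 in HCT-8 cells. In HepG2 cells its difference was −1.39 with every array (adjusted p = 0.603) and 0.27 without melatonin replicate 1 (adjusted p = 0.0222). SLC7A5, the light chain LAT1, fell in Huh-7 cells by 0.64 and passed in no other line, so the genes for both chains went opposite ways there. SLC7A6, another light chain, fell by 0.59, 1.06 and 0.57 in HGC-27, Huh-7 and HCT-8 cells. SLC43A1, a facilitative carrier, rose by 0.44 in HGC-27 and 1.17 in Huh-7 cells. SLC6A14 fell in both liver lines, by 0.97 (Huh-7) and 0.99 (HepG2). SLC6A15 fell by 1.32 in HGC-27 cells. Of the 10 transporters, 2 rose and 3 fell in HGC-27, 3 and 4 in Huh-7, 1 and 1 in HCT-8, and 0 and 1 in HepG2 cells. The shares of all genes were 20.9% higher and 18.7% lower in HGC-27, and 23.8% and 27.4% in Huh-7 cells. They were 16.6% and 15.0% in HCT-8, and 3.87% and 3.67% in HepG2 cells. Without HepG2 melatonin replicate 1 the HepG2 counts were 3 and 2, against shares of 16.4% and 14.9% of all genes.

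DLAT and PDHA1, the E2 core and E1 alpha chain of pyruvate dehydrogenase, fell where their BCKD counterparts DBT and BCKDHA did not pass. The E1 beta chains did not share this contrast throughout. PDHB fell by 0.34 in HGC-27 cells, where BCKDHB fell too, and by 0.55 in Huh-7 cells, where BCKDHB did not pass. DLAT fell by 0.83, 0.84, 0.40 and 0.75 in HGC-27, Huh-7, HCT-8 and HepG2 cells. PDHA1 fell by 0.27, 0.46 and 0.28 in the first 3. PDP1, the phosphatase that switches pyruvate dehydrogenase on, rose by 0.56, 0.57 and 0.48 there. OGDHL rose by 0.87 in HepG2 cells (adjusted p = 0.0126). ETFDH, which passes electrons from IVD and other acyl-CoA dehydrogenases to ubiquinone, rose by 0.65 in HGC-27, 0.79 in Huh-7, 0.62 in HCT-8 and 1.37 in HepG2 cells (1.08 without melatonin replicate 1). ETFA and ETFB, the subunits that hand electrons to it, fell in HCT-8 cells by 0.24 and 0.35. No test set these genes directly against the members.

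HepG2 melatonin replicate 1 also decided many HepG2 calls among these surrounding genes. Without it HADH (−0.61), MMAB (−0.33), PCCB (−0.52), PCCA (−0.19) and OXCT1 (−0.46) fell in HepG2 cells. So did ALDH1B1 (−0.68), AGXT2 (−0.26), PDHA1 (−0.49), SLC7A6 (−1.03), ETFA (−0.28) and ETFB (−0.54), while AACS (0.21) and SLC43A1 (0.31) rose. None of these passed with every array. The control mean of AGXT2 in HepG2 cells was low, at 1.35 (percentile 24.2 of all genes). The HepG2 calls named above that were made with every array were also made without it, at −0.38 for HSD17B10, −0.63 for EHHADH, −0.70 for BDH1, −0.78 for SLC6A14, −1.08 for HMGCS1, −0.71 for ACAT2, −0.71 for DLAT and 0.90 for OGDHL.

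For each member the genes with the most similar values were sought by the correlation over the 24 arrays, after the mean of each line was taken off. Candidates were the genes whose mean reached the median of all genes in any of the lines. The arrays share the melatonin contrast and the outlying array, so the values are a description. ALDH6A1 was closest to ZNF429 (r = 0.978), BCAT1 to SPP1 (0.961), BCAT2 to PGAM5 (0.953) and BCKDHB to CPSF6 (0.963). IVD was closest to CDK4 (0.976) and to its pathway neighbor PCCB (0.976), and MCCC1 to ASH2L (0.967). Lower values were found for HIBADH with SLC31A1 (0.929), HIBCH with SEC11A (0.886), DBT with FKBP9 (0.881) and BCKDHA with PCBD1 (0.754). Over 23 arrays, without HepG2 melatonin replicate 1, SPP1 remained closest to BCAT1 (0.965) and the first place changed for the other 9 members, to HDDC3 (0.981) for ALDH6A1 and ACTA1 (0.942) for IVD, for example.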

How the data were processed

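Biotin-labelled RNA of 24 samples was read on customized PrimeView arrays, and the deposited log2 intensities are summaries by robust multichip analysis (background correction, quantile normalization, summary per probe set). Whether lines were normalized together is not given in the sources used here. Labels name Trizol extraction, the methods another kit. Of 49495 probe sets, 45342 had 1 gene symbol in the array annotation, 1275 several and 2878 none listed. After 6 control probe sets were left out, 45336 were averaged into 18265 genes, as the methods average probes. No sequencing depth exists for arrays, and their number limits the precision.

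Groups were taken from the sample titles. Within each line melatonin was compared with control in limma 3.58.1 (R 4.3.3). Calls were made at 5% after Benjamini-Hochberg adjustment across the genes or the probe sets, and the interaction was a 3-term F test. The fits were tested on simulated data. With 3 arrays per group, p-values measure the spread between these samples. The members and lists were chosen with earlier results of these data known. Named besides the members were DLD, BCKDK and PPM1K, surrounding genes called the same way in at least 3 lines, and the 2 largest rises and falls per line. Some are given in the text. Some listed genes are not reported here. Promoter windows were RefSeq, GRCh38.p14.

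Settings tried in turn were quantile normalization of the table, arrays centred on their median or on an ERCC spike-in, the brightest probe set of a gene in place of the mean, no genes under the 25th percentile, limma's trend and robust options, all 24 arrays in a joint fit, at least 1.5-fold change, the methods' t-test, the replicate number as a block, and each array left out. The fit of probe sets and the similarity ranking without HepG2 melatonin replicate 1 were added after seeing the data. Replicate numbers were checked as pairs, and the correlation of the deviations of same-numbered arrays was −0.041 to 0.135 over 12 pairs, above 0.1 in 2.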

Additional observations from a re-analysis of the deposited data

Results flagged for a closer look

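The response to melatonin differed between the 4 lines for 7 members, by the interaction test of the joint limma fit of 24 arrays. Of all genes 34.3% passed this test, and 53.6% without HepG2 melatonin replicate 1. For BCAT1 the adjusted p was 3.96e-07 (4.44e-08 without HepG2 melatonin replicate 1), with differences of 0.08, −0.80, −0.03 and −0.31 in HGC-27, Huh-7, HCT-8 and HepG2 cells. For ALDH6A1 it was 3.23e-05 (1.44e-07), with 1.33, 1.14, 0.15 and 0.57. For HIBCH it was 1.84e-04 (1.05e-05), with −0.33, 0.20, 0.06 and −0.08. For HIBADH it was 4.74e-04 (2.38e-04), with 0.24, 0.28, 0.11 and −0.20. For BCKDHB it was 0.00941 (3.02e-07), with −0.72, 0.08, −0.21 and 0.19. For MCCC1 it was 0.00953 (1.63e-04), with −0.11, 0.15, −0.03 and −0.60. For BCAT2 it was 0.0112 (2.52e-04), with −0.29, −0.82, −0.12 and −0.45. These differences are those with every array. Without HepG2 melatonin replicate 1 the HepG2 differences were −0.30, 0.41, −0.13, −0.13, −0.12, −0.36 and −0.29 in the order of these genes. In the joint fit the lines share an estimate of spread, to which the wide HepG2 melatonin group adds.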

How the results depend on the processing

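On the 24 arrays 6, 6, 1 and 0 members were called in HGC-27, Huh-7, HCT-8 and HepG2 cells, and 22, 23, 19 and 6 genes of the wider pathway. Of all genes 39.6%, 51.2%, 31.6% and 7.54% were called in the same order. Centring the arrays on the brightest ERCC spike-in (1 of 100 exceeded the middle of all probe sets) moved the median of all genes by 0.15, −0.09, 0.24 and −0.24. It changed the share of higher genes among those called from 52.8% to 81.7% in HGC-27, 52.5% to 93.7% in HCT-8, 46.4% to 35.2% in Huh-7 and 51.3% to 13.2% in HepG2 cells. Centring on the median gave 33.1% in HGC-27 and 35.0% in Huh-7 cells. On the ERCC scale 3 members and 12 wider genes were called in HGC-27, 0 and 10 in HCT-8, and 1 member in HepG2 cells. The calls over all genes moved as well, from 7224 to 4321 in HGC-27, 5765 to 3890 in HCT-8 and 1377 to 1405 in HepG2 cells. A fold change of at least 1.5 left 2 and 4 in HGC-27, 0 and 1 in HCT-8 and 3 and 8 in Huh-7 cells. The joint fit gave 0 and 9 in HCT-8 and 6 and 15 in HepG2 cells. No share of all genes is given here for the 1.5-fold change or the joint fit, so their counts stand without a background. The same holds for the probe set with the highest mean, the methods' t-test, the replicate block and most arrays left out. Over all genes quantile normalization called 5654 in HCT-8 cells, and centring on the median called 1458 in HepG2 cells. In HCT-8 cells the probe set with the highest mean and quantile normalization gave 2 members each. In HepG2 cells centring on the median and the methods' t-test gave 1 member each. With 3 arrays per group, the correlations of same-numbered arrays cannot decide whether the replicate numbers pair the samples. The fit with the replicate block gave 0 members in HCT-8 and 0 wider genes in HepG2 cells and changed no other count by over 1.5 times. Leaving out 1 array gave 0 to 2 members and 10 to 17 wider genes in HCT-8 cells, and 0 to 4 and 0 to 17 in HepG2 cells, the highest without melatonin replicate 1, when 8 single probe sets passed. The background moved as well, since 31.3% of all genes were called in HepG2 cells without that array and 7.54% with it. The number of members that differed between lines stayed at 7 or 8 with any array left out. By the probe set with the highest mean the interaction of MCCC1 (adjusted p = 0.298) and HIBADH (0.539) did not pass, and on the ERCC scale that of BCKDHB (0.265) and HIBCH (0.13) did not.

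The sign turned for differences of −0.21 to 0.19, among them the called fall of BCKDHB in HCT-8 cells. For HGC-27 BCAT1 the probe set with the highest mean gave −0.39 (adjusted p = 0.00233), and centring on the median −0.0012. The ERCC scale gave 0.039 for BCKDHA, 0.022 for DBT and 0.037 for MCCC1 in HGC-27 cells. In HCT-8 cells it gave 0.21 for BCAT1, 0.11 for BCAT2, 0.033 for BCKDHB, 0.061 for IVD and 0.21 for MCCC1. HCT-8 BCAT1 was 0.064 by the probe set with the highest mean and 0.013 by quantile normalization. Leaving out 1 array gave −0.082 to 0.017 for HCT-8 BCAT1 and −0.078 to 0.013 for HCT-8 MCCC1. Huh-7 BCKDHA was −0.016 by quantile normalization, −0.019 by the median, −0.051 on the ERCC scale and −0.0057 to 0.075 with 1 array left out. Huh-7 BCKDHB was −0.025 by quantile normalization and −0.014 on the ERCC scale. In HepG2 cells HIBADH was 0.0697 by the probe set with the highest mean, BCKDHA 0.011 and HIBCH 0.036 by quantile normalization, and BCKDHB −0.052 on the ERCC scale. Leaving out 1 HepG2 array gave −0.094 to 0.071 for BCKDHA, −0.12 to 0.36 for BCKDHB and −0.19 to 0.0504 for DBT. The cause of these shifts was not tested.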
